A study of Mus musculus with 3 samples.

Results

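A set of 10 immediate early and heat shock genes was followed across mouse medulloblastoma cells: Fos, Fosb, Jun, Junb, Jund, Egr1, Ier2, Hspa8, Hsp90aa1 and Hsp90ab1. They were chosen by name as 10 of the 19744 genes in the count tables, and all 10 had counts in all 3 tumours. Each of the 3 tumours came from a G-Smo mouse (hGFAP-Cre/SmoM2, C57BL/6 background), in which Cre under the human GFAP promoter switches on SmoM2, an active form of the Hedgehog pathway receptor Smo. Each mouse received 5 daily intraperitoneal doses of POx-palbo, a polyoxazoline nanoparticle form of the CDK4 and CDK6 inhibitor palbociclib, at 25 mg/kg from postnatal day 10, and was harvested on day 16. A sagittal piece of cerebellum or tumour was dissociated with papain, and 3′ mRNA was counted per barcode by Drop-seq. All 3 tumours share genotype and treatment and form 1 group, and untreated tumours are not analysed here, so every comparison is between barcodes of the same tumours.

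Immediate early genes are transcribed within minutes of a stimulus, without new protein synthesis. Fos and Fosb proteins pair with Jun, Junb or Jund to form the AP-1 transcription factor, Egr1 is a zinc finger transcription factor induced by the same kinase cascades, and Ier2 is a nuclear protein of the same early response. Hspa8 is the constitutive member of the Hsp70 chaperones, Hsp90ab1 is the constitutive cytosolic Hsp90, and Hsp90aa1 is its stress-inducible partner. Both families are known to respond to neuronal activity, stress and tissue dissociation, and no undissociated sample is analysed here.

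The tables held 8827, 2330 and 9802 barcodes in tumours 1, 2 and 3, with total counts of 1150463, 248617 and 1324350 and medians of 84, 85 and 105 counts per barcode. Barcodes of 200 or more counts numbered 1060, 148 and 1059, and those of 500 or more numbered 311, 9 and 184, so tumour 2 stands apart in depth. Its barcodes of 200 or more counts also had 11.1% mitochondrial counts, against 5.64% and 6.30%, and a myeloid marker level of 25.1 counts per 10000, against 7.64 and 9.86. Results that rest on tumour 2 are given with and without it. The labelled tissue was checked against granule neuron progenitor markers, which were at 47.1, 38.4 and 50.4 per 10000, with counts of 9, 8 and 9 of 9 markers. Tumour 1 had 3 barcode sequences in common with tumour 2 and 8 with tumour 3, tumours 2 and 3 had 3 in common, and among barcodes of 200 or more counts there were 0. Nothing beyond the numbering of the tumours says how the animals were related. With each tumour fitted as a block, p-values rest on how class differences within a tumour vary over these 3 tumours. Estimates of that spread are shared across genes.

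Promoter sequences are shown for Fos, Fosb and Junb, whose levels differed together between marker-called cell types, and for Jun, their AP-1 partner. Windows of 300 bases (250 before and 50 after the gene start) were taken by symbol from RefSeq, build GRCm38.p6, for 5 of the 10 members. Egr1 was left out of this search, so nothing below covers its window. Of the 5, 4 are printed 5′ to 3′ on the gene's strand: Fos (chr12:85473640-85473939, plus strand), Fosb (chr7:19309996-19310295, minus strand), Junb (chr8:84978699-84978998, minus strand) and Jun (chr4:95052173-95052472, minus strand). Capitals mark matches to the cyclic AMP response element core TGACG, to the ATF/Jun site TGACATCA and to TATAAA.
Fos: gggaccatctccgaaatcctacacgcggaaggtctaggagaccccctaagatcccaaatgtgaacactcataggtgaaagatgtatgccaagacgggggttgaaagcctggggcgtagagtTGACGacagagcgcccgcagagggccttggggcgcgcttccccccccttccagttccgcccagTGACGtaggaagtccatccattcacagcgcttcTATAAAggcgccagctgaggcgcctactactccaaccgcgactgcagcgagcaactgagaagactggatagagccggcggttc
Fosb: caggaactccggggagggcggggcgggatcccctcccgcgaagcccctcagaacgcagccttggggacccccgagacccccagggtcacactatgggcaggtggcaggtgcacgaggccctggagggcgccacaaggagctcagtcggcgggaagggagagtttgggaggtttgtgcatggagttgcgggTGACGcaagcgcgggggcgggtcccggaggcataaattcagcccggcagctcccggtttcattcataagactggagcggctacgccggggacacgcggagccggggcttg
Junb: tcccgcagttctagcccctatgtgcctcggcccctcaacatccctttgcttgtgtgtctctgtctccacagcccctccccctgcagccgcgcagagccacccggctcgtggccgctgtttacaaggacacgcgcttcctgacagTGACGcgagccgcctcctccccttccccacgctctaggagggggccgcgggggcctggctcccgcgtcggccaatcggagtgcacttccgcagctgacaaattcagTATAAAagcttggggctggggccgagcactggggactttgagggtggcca
Jun: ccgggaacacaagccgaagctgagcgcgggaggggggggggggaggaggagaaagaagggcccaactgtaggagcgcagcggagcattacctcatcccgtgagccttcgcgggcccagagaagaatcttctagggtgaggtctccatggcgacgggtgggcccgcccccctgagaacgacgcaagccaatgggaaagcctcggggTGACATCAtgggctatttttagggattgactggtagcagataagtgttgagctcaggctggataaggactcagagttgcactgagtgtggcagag
The core TGACG lies at -129 to -125 and at -66 to -62 in Fos, at -60 to -56 in Fosb and at -106 to -102 in Junb, counted from the annotated start, and has no match in the Jun window. The Jun window holds TGACATCA at -45 to -38, TATAAA lies at -33 to -28 in Fos, and in Junb it covers 1 to 6, at the annotated start itself. Searched on both strands, TGACG was in 20.8%, TGACATCA in 3.62% and TATAAA in 13.6% of 32851 RefSeq promoter windows of this length. The full element TGACGTCA (in 1.79% of windows, and itself holding TGACG), the AP-1 site TGANTCA (7.81%) and the CArG box (1.63%) had no match in these windows or in that of Jund. A match is a description of letters, and TGACG was added after these sequences had been read.

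Levels are given as counts per 10000 counts of the same barcodes; they are 3′ tag counts and are read within a gene, not between genes. Among the AP-1 members in barcodes of 200 or more counts, Fos was at 2.21, 3.67 and 3.54 per 10000 in tumours 1, 2 and 3. Fosb was at 1.20, 1.08 and 1.46. Jun was at 11.7, 7.34 and 13.1. Of the 17 Fos counts of tumour 2, 10 came from 5 barcodes called myeloid, and in barcodes with no marker call for another cell type Fos was at 1.86, 1.81 and 2.95. Junb was at 0.686, 1.73 and 0.753 and Jund at 2.38, 1.94 and 3.29. Egr1 lay between 4.35 and 5.18, and Ier2 was at 3.09, 2.38 and 4.19. In the Junb values tumour 2 was high, but they rest on 8 counts there, with an exact 95% Poisson interval of 0.746 to 3.403.

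Among the chaperones, Hspa8 was at 11.7, 9.07 and 12.7 per 10000, Hsp90aa1 at 7.83, 6.69 and 6.45, and Hsp90ab1 at 48.1, 27.4 and 44.3. Hsp90ab1 was lowest in tumour 2 in each depth class, where its exact 95% Poisson interval at 200 or more counts was 22.9 to 32.6, below those of tumours 1 (46.2 to 50.2) and 3 (42.3 to 46.4). Summed over the 7 immediate early members, the level was 25.6, 23.3 and 31.1, and over the 3 chaperones 67.7, 43.2 and 63.5. The intervals cover counting error only.

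Many single barcodes had no count of the early genes, and the share depended on depth. With each barcode of 200 or more counts thinned to 200 counts, 64.9%, 70.3% and 60.5% of barcodes in tumours 1, 2 and 3 had none of the 7 immediate early members, and 29.3%, 46.0% and 30.7% had none of the 3 chaperones. Without thinning, these shares were 48.5%, 64.9% and 47.8%, and 12.4%, 35.8% and 17.0%. Free RNA also gives counts in barcodes, and no cell type that should lack these genes was defined, so the shares are not read as shares of expressing cells.

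Fosb counts were found more often where Fos was counted. In thinned barcodes, Fosb was present in 11.99% ± 3.29 (SD, n = 3 tumours) of barcodes with Fos and in 1.36% ± 0.565 of those without, summing to 12 of 107 and 35 of 2160 barcodes, and was higher in 3 of 3 tumours. Among barcodes with no marker call for another cell type, the shares were 8.26% ± 7.67 and 1.22% ± 0.413 (10 of 90 and 29 of 2051), higher in 2 of 3 tumours, with 0 of 5 Fos barcodes in tumour 2. Junb was present in 3.37% ± 1.90 of barcodes with Jun and in 0.835% ± 0.175 of those without (10 of 412 and 16 of 1855, and 6 of 390 and 12 of 1751 among barcodes with no call), higher in 3 of 3. In tumour 2 the Junb shares rest on 1 of 18 barcodes with Jun and 1 of 130 without. Both pairs were picked after their values were seen. Jun was in 20.7% ± 7.47 of barcodes with Fos and 16.2% ± 3.6 of those without, higher in 3 of 3. The means of some other AP-1 pairs went the other way. Jund was in 2.90% ± 2.68 of barcodes with Jun and 4.97% ± 1.04 of those without, though higher with Jun in tumour 1. Junb was in 0.565% ± 0.979 of those with Fos and 1.23% ± 0.217 of those without, though higher with Fos in tumour 3. The Junb shares rest on 1 of 107 and 25 of 2160 barcodes. Of the 21 pairs of immediate early members, the second gene was found more often with the first in 3 of 3 tumours for 8 pairs, in 2 for 6, in 1 for 6 and in 0 for 1. Among barcodes with no call these numbers were 5, 6, 7 and 3. These shares come from the cells of 3 tumours and were not tested.

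The depth contrast asked how the genes' levels moved between barcodes of 200 or more counts and those of under 100 counts. Fosb was higher and Jund lower in the deeper barcodes, and the other 8 members did not pass the threshold. That is 2 of 10 members at an adjusted p under 0.05 (edgeR quasi-likelihood test on counts summed per tumour, with the tumour as block, adjusted by Benjamini-Hochberg over 6908 genes), against 21.4% of all genes tested (8.47% higher and 12.9% lower). The members' count is near that background and is no result about the members as a group.

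In barcodes of under 100 counts, Fosb was at 0.409, 0.424 and 0.634 per 10000 in tumours 1, 2 and 3, from 18, 5 and 22 counts. All 3 of these levels lay below the 3 of the deeper barcodes, and the groups did not overlap. The share of all genes without overlap was not counted. The log2 difference was 1.34 (SE 0.32, adjusted p = 0.00104 by edgeR, higher in 3 of 3 tumours). Without tumour 1 it was 1.23 (adjusted p = 0.188 by edgeR), without tumour 3 1.52 (0.0937), and without the tumour block 1.33 (0.0638). Leaving out barcodes called for other cell types gave 1.02 (adjusted p = 0.0192 by edgeR). Over the alternatives the adjusted p ran from 0.000471 to 0.188, with a call in 9 of 12.

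Jund, the AP-1 partner known for steady expression, was at 3.93, 3.05 and 3.92 per 10000 in the shallow barcodes, and its groups overlapped. The log2 difference was -0.57 (SE 0.21, adjusted p = 0.0445 by edgeR, lower in 3 of 3 tumours). This call held under 2 of 12 alternatives, with adjusted p from 0.0392 to 0.685; without tumours 1, 2 and 3 in turn the adjusted p was 0.545, 0.0549 and 0.194. Jun was at 8.79, 6.36 and 8.88 in the shallow barcodes, with a log2 difference of 0.38 (SE 0.19, adjusted p = 0.134 by edgeR, 95% interval 0.01 to 0.75), and was called without tumour 2 (0.47, adjusted p = 0.0436).

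Hsp90ab1 was at 57.1, 35.6 and 51.7 per 10000 in barcodes of under 100 counts and at 45.7, 23.0 and 40.0 in those of 500 or more. Its level was lower in the deeper barcodes of each tumour, although the groups overlapped, since tumour 2 was low at every depth. The log2 difference between 200 or more and under 100 counts was -0.32 (SE 0.18, adjusted p = 0.182 by edgeR, 95% interval -0.67 to 0.02). Hspa8 differed by -0.08 (95% interval -0.44 to 0.28) and Hsp90aa1 by 0.10 (-0.28 to 0.47).

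**Figure D1:**
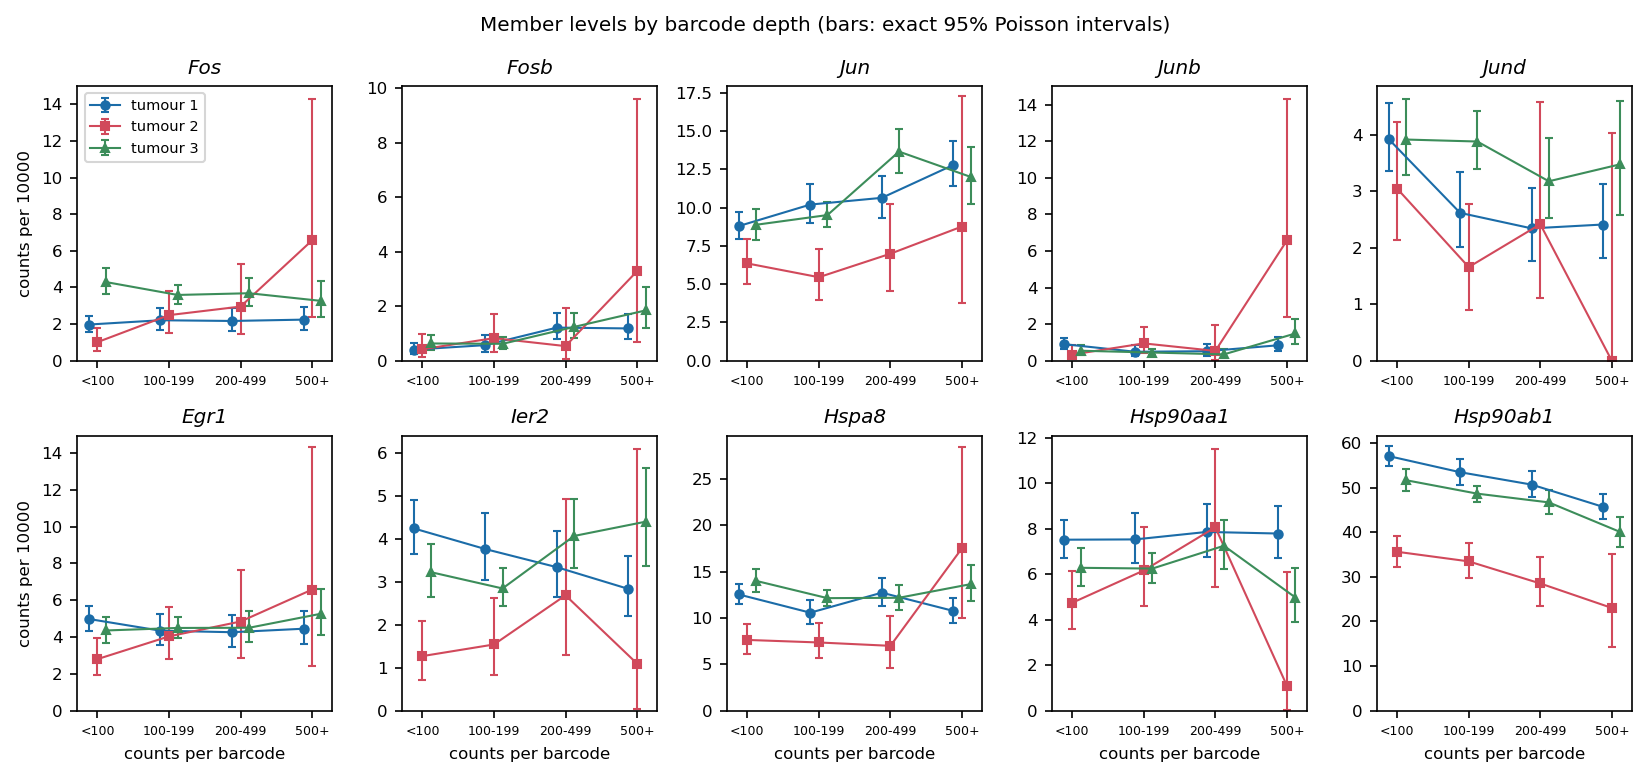
Counts per 10000 of each of the 10 genes (vertical axes) in 4 classes of barcode depth (horizontal axes, counts per barcode), with 1 line per tumour and exact 95% Poisson bars. Hsp90ab1 is lower to the right in all 3 lines (57.1 to 45.7, 35.6 to 23.0 and 51.7 to 40.0), and the wide bars of tumour 2 at 500 or more counts rest on 9 barcodes.

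In the 9 deepest barcodes of tumour 2, Fos stood at 6.58, Fosb at 3.29 and Junb at 6.58 per 10000, from 6, 3 and 6 counts. These barcodes had a myeloid marker level of 91.0 per 10000, against 9.15 and 18.3 in tumours 1 and 3, with 11 of 12 myeloid markers counted and P2ry12 at 0. Their vascular marker level was 28.5, against 2.71 and 4.98, with 6 of 9 markers counted and Pecam1, Vtn and Pdgfrb at 0. Among all barcodes of 200 or more counts in tumour 2, 5 Junb counts were in the 2 barcodes called vascular and 1 in the 5 called myeloid. Leaving out the called barcodes gave log2 differences of -0.25 for Fos and -0.90 for Junb in place of 0.14 and 0.27, none of them past the threshold. Calls need 200 counts, so barcodes were left out of the deeper side alone. Barcodes of under 100 counts kept myeloid markers at 7.57, 3.22 and 5.74 per 10000 in tumours 1, 2 and 3. The part of those cells in the depth values was otherwise not tested.

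Other genes of both responses were counted from lists. Of 18 other immediate early genes tested, 1 was higher in the deeper barcodes and 0 lower: Srf, the serum response factor that drives many of them, with a log2 difference of 1.24 (SE 0.46, adjusted p = 0.0440 by edgeR). Of 48 other chaperone and heat shock genes, 3 were higher and 10 lower. Of all genes tested, 8.47% were higher and 12.9% lower. An unadjusted p under 0.05 by edgeR was found for 2 of the 18 and 22 of the 48, against 33.8% of all genes. Neither list was tested against these shares, so the counts are not read as particular to a list. The endoplasmic reticulum chaperones Hspa5 (1.06, SE 0.19, adjusted p = 7.4e-06 by edgeR) and Hsp90b1 (0.93, SE 0.19, adjusted p = 8.5e-05) were higher. The mitochondrial co-chaperonin Hspe1 (-1.34, SE 0.25, adjusted p = 1.9e-05) and the Hsp70 cofactor Bag1 (-1.20, SE 0.26, adjusted p = 0.000311) were lower. Hspd1, the mitochondrial chaperonin that works with Hspe1, was the third higher gene (0.51, SE 0.19, adjusted p = 0.0443 by edgeR), and is named outside the rule of 4 genes per list, after its value was seen. The list medians were 0.09 and -0.30, beside -0.03 over all genes tested.

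The Neurod1 split set barcodes with a count of Neurod1, a transcription factor of differentiating granule neurons, against those without, among barcodes of 200 or more counts. Jun and Fosb had lower levels with Neurod1 in 3 of 3 tumours, and neither passed the threshold. Of the 10 members 0 were called, against 1.03% of the 3479 genes tested by edgeR (0.805% higher and 0.23% lower), and 2 had an unadjusted p under 0.05, against 10.6% of genes; DESeq2 called 0 members, and 0 genes in all. The classes held 330, 51 and 407 barcodes with Neurod1 and 730, 97 and 652 without.

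Jun was at 8.09, 7.26 and 10.7 per 10000 with Neurod1 and at 13.5, 7.40 and 14.7 without, in tumours 1, 2 and 3. The pair of values in tumour 2 was close, and the groups overlapped. The log2 difference was -0.55 (SE 0.16, 95% interval -0.89 to -0.22, adjusted p = 0.128 by edgeR). It was called in 4 alternatives: without tumour 2 (-0.60, adjusted p = 0.00105 by edgeR), without barcodes called for other cell types (-0.53, 0.0277), with Neurod1 read from 200 drawn counts (-0.54, 0.0203) and with both splits in 1 fit (-0.51, 0.0448). Over all 14 alternatives it lay between -0.69 and -0.26, with adjusted p from 0.00105 to 1.

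Fosb was at 0.657, 0.518 and 0.803 per 10000 with Neurod1 and at 1.46, 1.48 and 1.90 without, and the groups did not overlap. The share of all genes without overlap was not counted here either. These levels rest on 10, 1 and 13 counts with Neurod1 and on 46, 4 and 45 without. The log2 difference was -1.22 (SE 0.36, 95% interval -1.98 to -0.47, adjusted p = 0.143 by edgeR). It was called in 1 of 14 alternatives, without tumour 2 (-1.21, adjusted p = 0.0443), and the adjusted p otherwise reached 1. Fos, in contrast, was at 1.71, 5.70 and 3.34 with Neurod1 and 2.45, 2.22 and 3.68 without, higher with Neurod1 in tumour 2 alone, and Egr1 was at 3.09, 7.26 and 4.76 against 4.97, 3.70 and 4.78.

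In tumour 2 the myeloid marker level was 43.5 per 10000 with Neurod1 and 11.8 without, whereas in tumours 1 and 3 it was 5.52 and 5.25 with and 8.66 and 13.0 without. Of the 12 markers, 11 were counted in the Neurod1 class of tumour 2 (P2ry12 at 0), 11 in that of tumour 1 (Aif1 at 0) and 12 in that of tumour 3. Vascular markers were at 14.0 with Neurod1 and 3.33 without in tumour 2 (6 and 4 of 9 markers counted), at 0.0658 and 2.71 in tumour 1 and at 2.66 and 1.77 in tumour 3. Median depth was 372.5, 253 and 316 counts with Neurod1 and 345, 256 and 294 without. With the called barcodes left out, the Fos difference was 0.11 (SE 0.27), in place of -0.15 (SE 0.25).

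**Figure D2:**
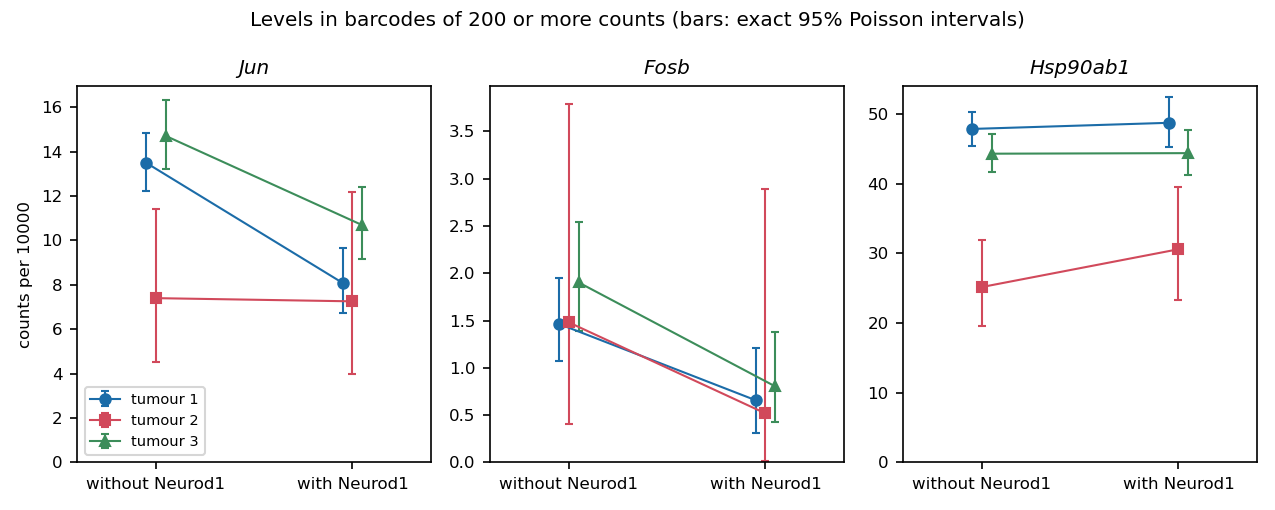
Counts per 10000 (vertical axes) of Jun, Fosb and Hsp90ab1 in barcodes of 200 or more counts without and with a Neurod1 count (horizontal axes), with 1 line per tumour and exact 95% Poisson bars. Fosb lies between 1.46 and 1.90 without Neurod1 and between 0.518 and 0.803 with it, and Jun in tumour 2 is nearly level at 7.40 and 7.26.

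The 3 chaperone members did not pass the threshold, and their intervals include 0. Hsp90ab1 was at 48.7, 30.6 and 44.4 per 10000 with Neurod1 and 47.8, 25.2 and 44.3 without, a log2 difference of 0.04 with a 95% interval of -0.21 to 0.30. For Hspa8 the difference was -0.13 (95% interval -0.44 to 0.19) and for Hsp90aa1 0.18 (-0.20 to 0.56). The intervals for Junb (-1.23 to 0.79) and Jund (-0.51 to 0.46) were wider. Of the listed genes, 0 of 9 other immediate early genes and 0 of 38 other chaperones were called, with 2 and 4 at an unadjusted p under 0.05 by edgeR; DESeq2 called 0 genes.

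The proliferation split set barcodes with a count of Mki67 or Top2a, genes of dividing cells, against those without. Of the 10 members 0 were called by edgeR, against 2.87% of 3866 genes tested (1.99% higher and 0.879% lower), and 1, Jun, had an unadjusted p under 0.05, against 11% of genes; DESeq2 called 0 members and 34 genes (1.59% of the 2142 it adjusted). Jun was at 14.7, 7.48 and 13.5 per 10000 with proliferation mRNA and 9.87, 7.21 and 12.7 without. It was higher with it in 3 of 3 tumours, the groups overlapped, and only in tumour 1 was the gap wide. The log2 difference was 0.30 (SE 0.15, adjusted p = 0.446 by edgeR, 0.201 to 1.00 over 14 alternatives), and with detection on 200 drawn counts it was 0.00015. The classes differed in depth, with medians of 447, 274.5 and 359 counts with proliferation mRNA and 318, 246.5 and 284 without.

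For the other members the differences were -0.29 for Fos (95% interval -0.77 to 0.19), -0.40 for Ier2 (-0.90 to 0.09) and -0.15 for Hsp90ab1 (-0.37 to 0.08). Ier2 was at 1.88, 1.76 and 4.44 per 10000 with proliferation mRNA and at 3.85, 2.97 and 4.01 without, so tumour 3 ran against tumours 1 and 2. Of the lists, 0 of 11 other immediate early genes and 0 of 40 other chaperones were called by edgeR, with 1 and 3 at an unadjusted p under 0.05. The difference of Jun by Neurod1 between barcodes with and without proliferation mRNA, tested as an interaction, was 0.56 (SE 0.32, adjusted p = 0.999 by edgeR); 0 of the 9 members tested were called, against 0.0804% of 2488 genes, with 0 members and 3.14% of genes at an unadjusted p under 0.05, and 0 genes called by DESeq2.

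**Figure D3:**
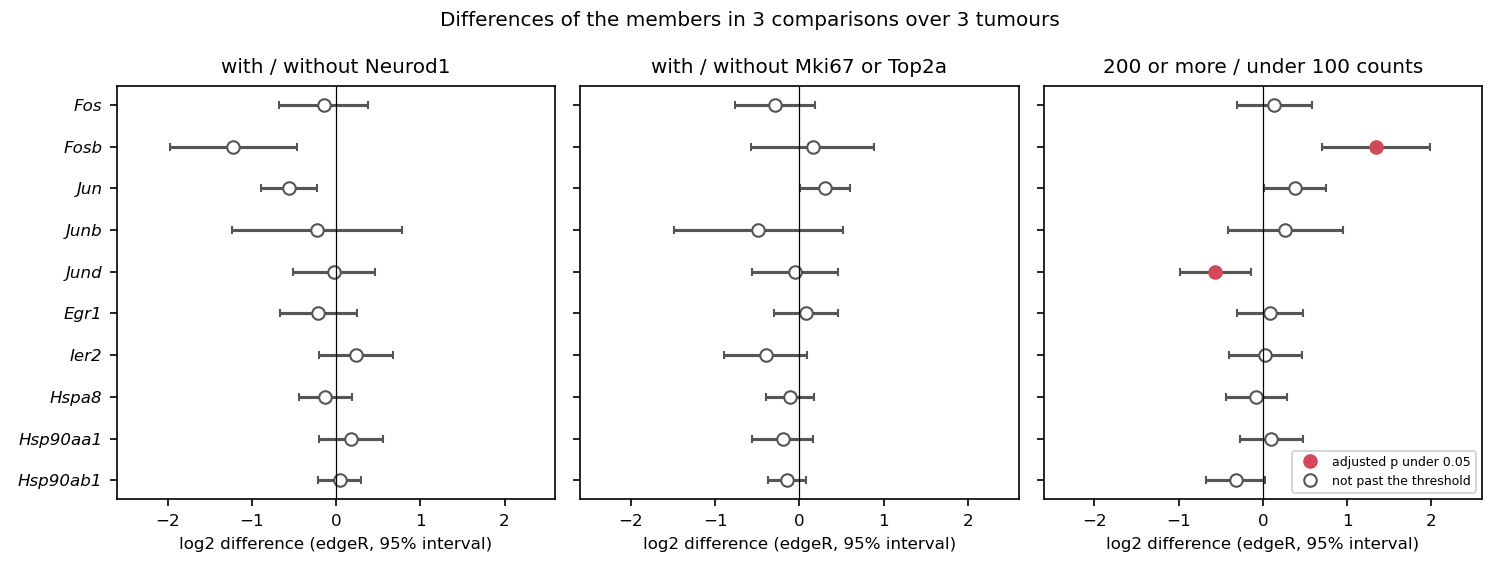
Log2 differences of the 10 genes (horizontal axes, points with 95% intervals from edgeR over 3 tumours) for the Neurod1 split, the proliferation split and the depth contrast, with filled points at an adjusted p under 0.05. Fosb (1.34) and Jund (-0.57) are filled in the depth panel and no point is filled in the other panels.

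Over the 12 sums of 3 tumours and 4 classes (Neurod1 by proliferation), the genes whose log2 level was most like the summed immediate early level were Rpl13 (Pearson r 0.85), Cox4i1 (0.82), Itgb1 (0.82), Smarca5 (0.82) and Rps18 (0.81), of 447 genes with at least 300 counts. For the summed chaperone level they were Ahi1 (0.92), Tuba1a (0.92), Kmt2e (0.91), Smarca4 (0.89) and Top2b (0.89). With each tumour's mean removed, these 5 were at 0.67, 0.78, 0.68, 0.69 and 0.72. The sums share libraries and depth, so the values are descriptions.

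Wide differences in Fos, Fosb and Junb lay between marker-called cell types, a description chosen after the levels had been seen and given with no test. A barcode of 200 or more counts was called for another cell type from at least 3 counts of at least 2 markers, and 37 barcodes were called myeloid (16, 5 and 16 in tumours 1, 2 and 3) against 2141 with no call (983, 139 and 1019); 31 of the 37 had at least 5 marker counts. Fos was at 8.99, 30.4 and 20.8 per 10000 in the myeloid barcodes and at 1.86, 1.81 and 2.95 in those with no call. Fosb was at 12.4, 6.09 and 5.55 against 0.905, 0.776 and 1.26. Junb was at 5.62, 3.04 and 10.4 against 0.342, 0.517 and 0.355. For each of these genes the 2 groups of tumours did not overlap, and nor did they for Egr1, Hsp90aa1 and Hsp90ab1. The share of all genes without overlap was not counted, so the lack of overlap is no result particular to these genes.

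As ratios of summed counts, with exact conditional 95% intervals that cover counting error only, Fos in the myeloid barcodes was at 7.69 times its level in those with no call (5.48 to 10.6), Fosb at 7.47 times (4.40 to 12.2) and Junb at 22.2 times (12.01 to 40.2). They rest on 48, 21 and 21 counts. Egr1 had a ratio of 1.85 (1.15 to 2.84), higher in 3 of 3 tumours. The Jun ratio was 1.38 (0.994 to 1.86), at 25.9, 3.04 and 13.9 against 11.3, 6.98 and 13.3, so tumour 2 ran the other way on 1 count. Ier2 (1.08) and Jund (0.680, 0.219 to 1.61) had intervals that include 1.

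Both Hsp90 genes were lower in the myeloid barcodes. Their levels summed over tumours were also low in the 8 barcodes called vascular, given below, though Hsp90ab1 was not low in those of tumour 2. Hsp90ab1 was at 15.7, 12.2 and 20.8 per 10000 in the myeloid barcodes and at 49.97, 29.0 and 45.7 in those with no call, a ratio of 0.384 (0.282 to 0.510), lower in 3 of 3 tumours. Hsp90aa1 had a ratio of 0.199 (0.0540 to 0.511) from 4 counts, and Hspa8 of 0.806 (0.524 to 1.19). Summed, the 7 immediate early members were at 66.3, 60.8 and 63.9 against 24.1, 19.7 and 29.9, and the 3 chaperones at 25.9, 15.2 and 34.7 against 70.2, 44.5 and 65.3.

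**Figure D4:**
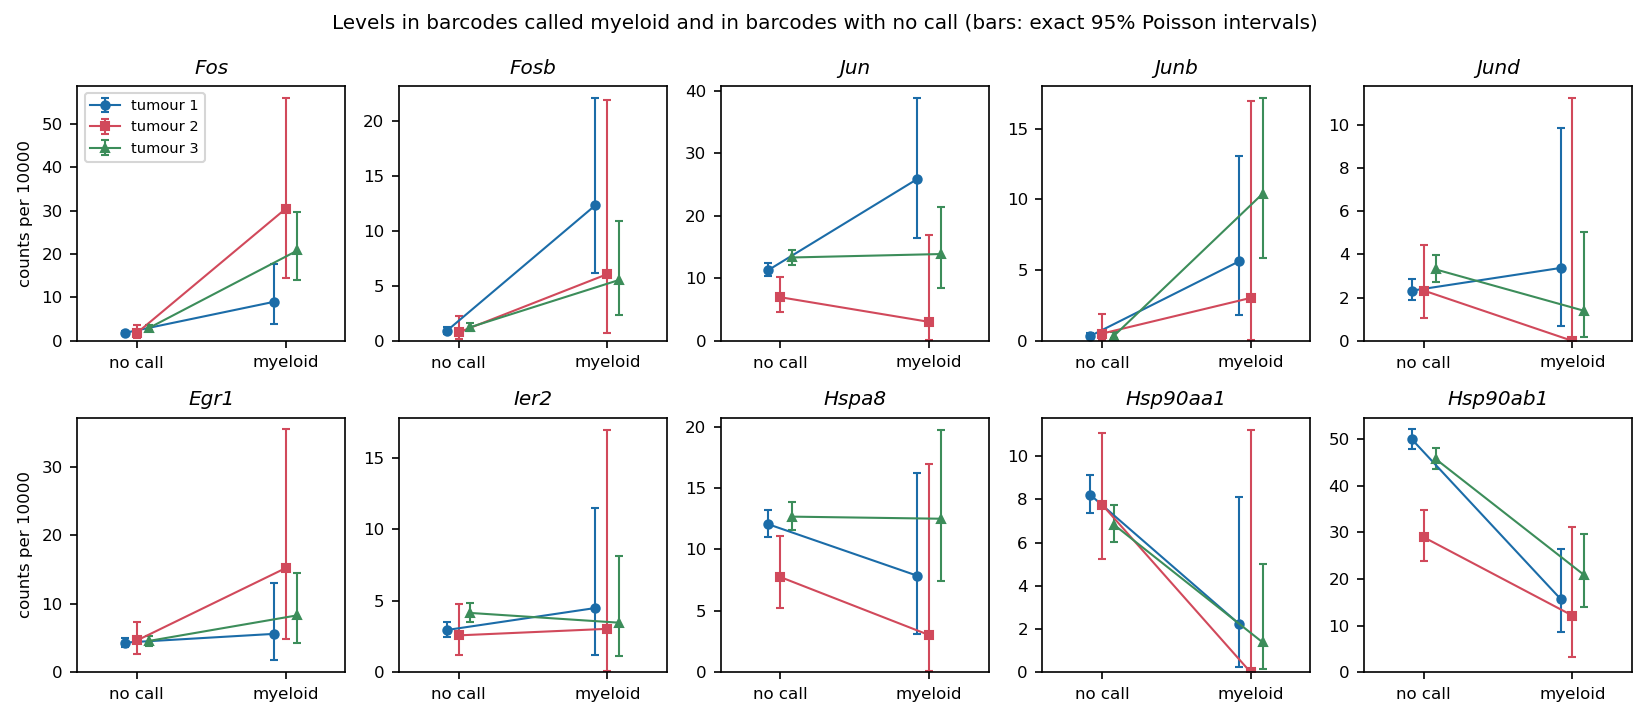
Counts per 10000 of each of the 10 genes (vertical axes) in barcodes with no call and in barcodes called myeloid (horizontal axes), with 1 line per tumour and exact 95% Poisson bars. Fos, Fosb and Junb are higher in the myeloid barcodes of all 3 tumours (Fos 8.99 to 30.4 against 1.81 to 2.95), and Hsp90ab1 is lower (12.2 to 20.8 against 29.0 to 49.97).

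The myeloid barcodes were deeper, with medians of 455, 465 and 525.5 counts against 341, 250 and 299. Their myeloid markers summed to 279, 325 and 213 per 10000, against 2.29 to 2.33 in barcodes with no call, with 12, 11 and 12 of 12 markers counted. Progenitor markers were at 13.5, 3.04 and 16.7, against 44.8 to 51.8. In tumour 3 the myeloid barcodes also held vascular markers at 21.5 per 10000 (8 of 9 markers), and these were at 0 in tumours 1 and 2; the part of such mixed barcodes was not tested. Without tumours 1, 2 and 3 in turn, the Fos ratio was 7.96, 6.87 and 7.97, the Fosb ratio 4.67, 7.62 and 11.9, and the Junb ratio 24.4, 24.6 and 13.8. The Jun ratio was 0.933, 1.504 and 1.80, and the Egr1 ratio 2.09 (1.19 to 3.44), 1.63 (0.941 to 2.65) and 1.88 (0.885 to 3.52). The 8 barcodes called vascular had Junb at 17.2 (8 counts) and 14.0 (5 counts) in tumours 1 and 2 and no count among 2323 in tumour 3. In tumours 1, 2 and 3 they had Fos at 10.8, 0 and 0 and Fosb at 6.46, 0 and 4.31. Their summed immediate early level was 79.7, 33.6 and 12.9. Hsp90ab1 was at 19.4, 30.8 and 8.61 in them, and at 20.9 when summed (13.1 to 31.6). Hsp90aa1 was at 0.949 when summed, from 1 count. In tumours 1 and 3, low Hsp90ab1 was thus not particular to the myeloid barcodes. In tumour 2 the vascular barcodes were not low, at 30.8 against 29.0 in those with no call. In the astrocyte barcodes (45 in tumour 1 and 16 in tumour 3) Fos was at 1.90 and 2.81 and Junb at 1.09 and 1.88, with exact 95% Poisson intervals of 0.296 to 2.78 and 0.227 to 6.78 for Junb. The 15 barcodes called oligodendrocyte lineage had Fos at 6.51 when summed (2.11 to 15.2). Its 5 counts were all in tumour 1, where Fos was at 8.32. Junb had no count in these barcodes.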

How the data were processed

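Single-cell mRNA of 3 treated tumours was counted by Drop-seq. The deposited tables hold whole-number counts per gene and barcode, with no normalisation by the authors recorded. Per the submitters' processing notes, STAR, Cell Ranger and GRCh38 were named, with no role or version, yet 18566 of 19744 symbols matched mouse gene names, so no coordinates came from the tables. The members and gene lists were chosen with earlier results of these data known.

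Every deposited barcode held at least 50 genes. Doublets were not called. Counts were summed per tumour and barcode class, since cells are not replicates, and tested with edgeR 4.0.16 (glmQLFit, TMM, filterByExpr with a minimum count of 10; R 4.3.3), with tumour as block because the classes came from the same animals, and Benjamini-Hochberg adjustment at 0.05. Split genes were not tested. Standard errors are the log2 difference over the root of F. DESeq2 1.42.0 was an alternative. On simulated data, a log2 change of 1 was called for 32% of changed genes in the Neurod1 split (3480 genes). It was called for 37% in the proliferation split (3856), 40% in the depth contrast (6801) and 9% in the interaction (2424). A change of 2 was called for 82%, 79%, 93% and 67%, in the same order. Each rate was over 100 changed genes, and the rate at counts as low as those of Fosb or Junb was not tested. The simulated tumours shared 1 mean per gene, 1 fixed spread and the same change. The rates therefore need not hold for real tumours, which differ.

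Thinning used 1 random draw of 200 counts per barcode. Named genes were the 10 members, up to 4 called genes per list (41 of 42 other immediate early genes and 59 of 60 other chaperones were in the tables) and the 5 most similar genes per summed level. The alternatives without barcodes over 10% mitochondrial counts, those for the interaction and those for the myeloid levels were added after seeing the data.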

Additional observations from a re-analysis of the deposited data

Results flagged for a closer look

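In the test of whether the Neurod1 difference of a gene changed with proliferation mRNA, 2 of 2488 genes passed the threshold by edgeR, and neither is an immediate early or heat shock gene. Ctsd, a lysosomal protease, had an interaction of 2.00 on the log2 scale (SE 0.39, adjusted p = 0.000643 by edgeR), and without tumour 2 it was 1.98 (adjusted p = 0.149). Apoe, a lipid carrier, had 1.31 (SE 0.29, adjusted p = 0.0107 by edgeR), and without tumour 2 it was 0.81 (adjusted p = 0.961). The 17 barcodes of tumour 2 with both Neurod1 and proliferation mRNA held 11 of 12 myeloid markers, with P2ry12 at 0, at a summed level of 65.5 per 10000 against 3.17 and 5.50 in tumours 1 and 3. They also held 6 of 9 vascular markers (Pecam1, Vtn and Pdgfrb at 0), at 25.1 per 10000 against 0 and 0.324; the part of these in the interaction was not tested.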

How the results depend on the processing

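Depth limits these results: at 200 or more counts per barcode 1 member, Hsp90ab1 with 127, had over 100 counts in tumour 2, and 3 tumours set the spread. The genes called in the Neurod1 split (36) were 0 with DESeq2, 0 with no replicate block, 88 without barcodes of other cell types, 57 and 9 at minimums of 100 and 500 counts, 109 with detection on 200 drawn counts, 69 with both splits in 1 fit and 0 to 155 with a tumour left out. In the proliferation split (111) they were 34 with DESeq2, 50 with no replicate block, 177 and 12 at minimums of 100 and 500 counts and 0 to 168 with a tumour left out. In the depth contrast (1477) they were 744 with DESeq2, 74 with no replicate block, 486 against barcodes from 100 to under 200 counts and 186 to 1927 with a tumour left out. In the interaction (2) they were 0 with DESeq2, 0 with no replicate block and 0 to 2 with a tumour left out. The log2 differences of members turned sign as follows, none past the threshold. In the Neurod1 split Fos was 0.041 with DESeq2, 0.013 with no replicate block, 0.11 without other cell types, 0.081 at a minimum of 100 and -0.30 to 0.26 with a tumour left out, Junb 0.086 at 100, Jund 0.18 on drawn counts and -0.12 to 0.0072 with a tumour left out, Egr1 -0.33 to 0.28, and Hsp90aa1 -0.12 to 0.26 likewise, Ier2 -0.077 at 500 and -0.0089 on drawn counts, and Hsp90ab1 -0.025 with no filter, -0.011 without other cell types and -0.042 at 100. In the proliferation split Fosb was -0.00031 with DESeq2, -0.15 at 500 and -0.36 to 0.27 with a tumour left out, Jund 0.024 at 500 and -0.35 to 0.035 with a tumour left out, Egr1 -0.0087 without other cell types, Hspa8 0.12 at 500 and -0.15 to 0.022 with a tumour left out, and Hsp90aa1 0.27 and Hsp90ab1 0.67 at 500. In the depth contrast Fos was -0.25 without other cell types and -0.099 to 0.68 with a tumour left out, Junb -0.90 and -0.049 to 0.99 likewise, Egr1 -0.055 to 0.34 with a tumour left out, Ier2 -0.0044 without other cell types, -0.050 for 500 or more counts and -0.10 to 0.47 with a tumour left out, Hspa8 0.11 against those from 100 to under 200 and -0.14 to 0.060 with a tumour left out, and Hsp90aa1 -0.18 for 500 or more counts. The cause of these moves was not tested, but leaving out a tumour leaves fewer samples and a minimum of 500 leaves fewer genes tested. In the depth contrast, leaving out other cell types removed barcodes of 200 or more counts alone. With a tumour left out, the mean myeloid level ran from 8.46 to 19.9 per 10000 for Jun, 0.694 to 2.38 for Jund and 0.694 to 1.82 for Hsp90aa1, in place of 14.3, 1.59 and 1.21. With no replicate block (no pairing by tumour), the Fosb and Jund calls of the depth contrast were lost, and no other member's call changed.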
